A study of Homo sapiens with 9 samples.

Results

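The ISG15 conjugation system was followed across the 3 genotypes of a CRISPR experiment in DMS273 cells, a line from a human small cell lung cancer. It was taken as the 6 genes ISG15, UBA7, UBE2L6, HERC5, HERC6 and USP18, found by gene name in a table of 67140 genes, where each name had 1 row and all 6 passed the filter on low counts. Total RNA was depleted of rRNA and sequenced in 9 libraries, 3 per group. Cells of the group ATG7/SQSTM1 KO were made with CRISPRv2 to lack ATG7 as well as SQSTM1, those of the group ATG7 KO to lack ATG7, and control cells carried a scrambled guide, with a genotype labelled WT. All were grown in RPMI 1640 with 10% fetal bovine serum, and no drug or interferon treatment is given in the labels. Whether the knockout lines are clones or pools, and whether the libraries of a group came from separate cultures, is not stated in the labels, so the p-values measure the spread between these libraries, which may be technical.

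ISG15 is a small ubiquitin-like protein that cells make after interferon signalling and attach to other proteins. The attachment runs through an activating enzyme (E1), a conjugating enzyme (E2) and a ligase (E3), and a protease takes the modifier off again. UBA7 is the E1, UBE2L6 the E2, HERC5 the main human E3 and USP18 the protease that is specific for ISG15. HERC6 is a neighbouring relative of HERC5, and its mouse counterpart is the main ISG15 ligase in mouse. USP18 also restrains signalling from the type I interferon receptor by binding its subunit IFNAR2 together with STAT2. ATG7, the gene targeted here, is itself an E1-like enzyme of the same broad family, acting on the ubiquitin-like proteins of autophagy, while SQSTM1 encodes p62, a receptor for ubiquitylated cargo.

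The promoters of ISG15, HERC5 and HERC6 are shown because these are the modifier, its main human ligase and that ligase's neighbour, and the transcripts of the pair of neighbours changed by unequal amounts. Each sequence runs 5′ to 3′ on the gene's own strand, from 250 bases before to 50 bases after a RefSeq start site (GRCh38.p14), and all are on the plus strand. Capitals mark the letters GAAA, any 2 bases, GAAA or, on the other strand, TTTC, any 2 bases, TTTC, the core of the interferon-stimulated response element, to which the interferon-activated complex ISGF3 is known to bind. The ISG15 window is chr1:1013247-1013546, the HERC5 window chr4:88456869-88457168 and the HERC6 window chr4:88378602-88378901.
ISG15: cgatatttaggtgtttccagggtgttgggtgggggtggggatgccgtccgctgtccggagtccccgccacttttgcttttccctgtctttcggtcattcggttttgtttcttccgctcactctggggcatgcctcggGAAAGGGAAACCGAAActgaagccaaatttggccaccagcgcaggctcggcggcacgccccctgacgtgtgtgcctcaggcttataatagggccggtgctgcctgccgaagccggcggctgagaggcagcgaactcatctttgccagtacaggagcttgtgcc
HERC5: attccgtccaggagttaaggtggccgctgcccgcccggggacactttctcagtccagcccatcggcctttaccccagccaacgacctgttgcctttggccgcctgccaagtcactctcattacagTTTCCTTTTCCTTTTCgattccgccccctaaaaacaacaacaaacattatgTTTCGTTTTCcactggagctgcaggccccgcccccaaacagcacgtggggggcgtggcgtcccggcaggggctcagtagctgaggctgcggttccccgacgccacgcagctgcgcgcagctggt
HERC6: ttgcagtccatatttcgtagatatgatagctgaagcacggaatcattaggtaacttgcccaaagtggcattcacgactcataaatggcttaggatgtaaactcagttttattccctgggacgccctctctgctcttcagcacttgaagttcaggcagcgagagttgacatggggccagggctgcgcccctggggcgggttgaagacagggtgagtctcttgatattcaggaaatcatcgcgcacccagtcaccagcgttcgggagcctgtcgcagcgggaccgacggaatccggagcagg

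ISG15 holds 2 overlapping matches, which begin 113 and 107 bases before the start site. HERC5 holds 3 matches, all on the other strand, and they begin 125, 119 and 74 bases before its start site. The HERC6 window holds no match, and neither do the 2 overlapping windows listed for UBE2L6 (chr11:57567886-57568185 and chr11:57567623-57567922, minus strand), so these letters are not in those windows. Of 35116 windows of this length in the RefSeq table, 3.57% hold the core on either strand. A longer form that contains the core, GGAAA, any 2 bases, GAAACT on either strand, is in 0.134% of the windows, among them those of ISG15 and HERC5. A match is a description of the letters and not a measured binding site. The table has a window for 4 of the 6 genes, without UBA7 and USP18.

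Library totals ran from 28675576 to 34222098 counts. Levels are counts scaled to the library total with TMM factors (CPM). Log2 changes are given with a standard error (SE), and p-values come from edgeR's quasi-likelihood test with Benjamini-Hochberg adjustment over 18847 tested genes, with 0.05 as the threshold. RNA of each targeted gene was lower in the groups labelled as lacking it, and loss of protein cannot be read from RNA. ATG7 stood at 10.2 to 11.2 CPM in ATG7/SQSTM1 KO, 9.99 to 13.0 CPM in ATG7 KO and 26.4 to 28.1 CPM in control. SQSTM1 stood at 48.8 to 55.3 CPM in ATG7/SQSTM1 KO, 388 to 396 CPM in ATG7 KO and 373 to 380.2 CPM in control. Of 6 neuroendocrine markers that define such a line, all 6 were detected, and their summed level was 396 to 411 CPM in ATG7/SQSTM1 KO, 134 to 138 CPM in ATG7 KO and 378 to 387 CPM in control. The members were unequal: between ATG7/SQSTM1 KO and control, NEUROD1 and SYP were higher in ATG7/SQSTM1 KO (log2 changes 0.29 and 0.28) and INSM1 and NCAM1 lower (-0.28 and -0.85), and NCAM1 averaged 21.7 CPM in ATG7/SQSTM1 KO and 39.0 CPM in control.

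All 6 genes of the system were higher in ATG7 KO than in control, and all 6 were lower in ATG7/SQSTM1 KO than in ATG7 KO. Between ATG7/SQSTM1 KO and control, ISG15 alone passed the threshold, and it was higher in ATG7/SQSTM1 KO. The changes were unequal. In ATG7 KO, ISG15 was 7.85-fold above control, HERC6 3.74-fold, UBE2L6 2.74-fold, UBA7 2.37-fold, USP18 2.28-fold and HERC5 1.47-fold. The background was broad: 28.4% of all tested genes were called higher in ATG7 KO than in control, 29.9% lower in ATG7/SQSTM1 KO than in ATG7 KO and 19% higher in ATG7/SQSTM1 KO than in control. In the opposite directions, 28.3% of all tested genes were called lower in ATG7 KO than in control, 30.5% higher in ATG7/SQSTM1 KO than in ATG7 KO and 19.6% lower in ATG7/SQSTM1 KO than in control. All 6 members had no overlap between the libraries of ATG7 KO and those of either other group, which held for 30.8% of all tested genes in the higher direction against control and for 32.4% in the lower direction of ATG7/SQSTM1 KO against ATG7 KO. ISG15 alone had no overlap between ATG7/SQSTM1 KO and control, where 23.9% of all tested genes had none in the higher direction. Beside 5 of the 6 members at least 2-fold higher in ATG7 KO than in control, 4.22% of all tested genes were called and at least 2-fold higher. Beside 5 of the 6 at least 2-fold lower in ATG7/SQSTM1 KO than in ATG7 KO, 3.86% of all tested genes were called and at least 2-fold lower. Each pair of comparisons shares 3 libraries, so the opposite signs against ATG7 KO are not separate observations.

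**Figure D1:**
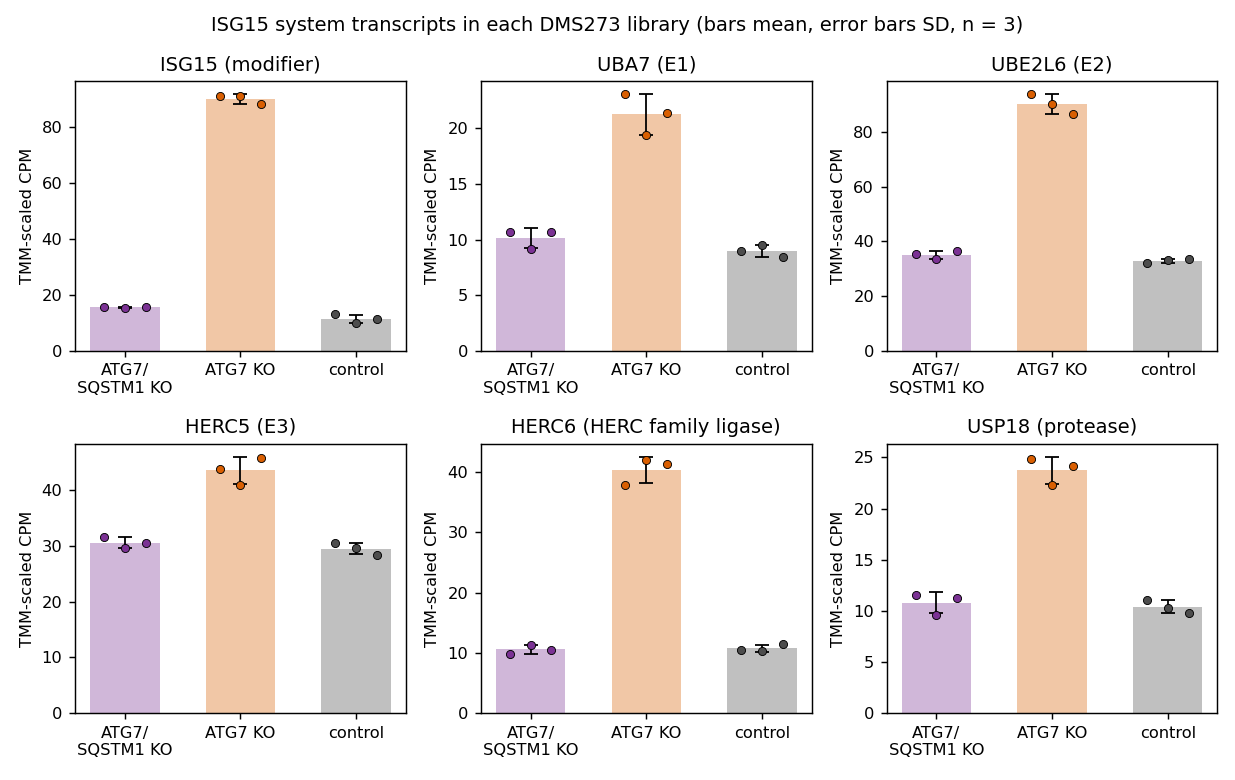
TMM-scaled CPM of the 6 genes (vertical axis, from 0) in each library of ATG7/SQSTM1 KO, ATG7 KO and control cells, where points are libraries, bars are means and error bars are SD (n = 3). In every panel the 3 ATG7 KO points lie above all points of the other groups, and in the ISG15 panel the ATG7/SQSTM1 KO points also lie above the control points.

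The modifier itself moved most. ISG15 (ENSG00000187608, GRCh38 chromosome 1, 1001138 to 1014540, plus strand) had 15.7, 15.4 and 15.7 CPM in ATG7/SQSTM1 KO cells, 91.2, 91.4 and 88.3 CPM in ATG7 KO cells and 13.0, 9.99 and 11.4 CPM in control cells. The 3 groups did not overlap, with ATG7 KO far above the other two. Against control, ISG15 rose in ATG7 KO by 2.97 on the log2 scale (SE 0.061, edgeR adjusted p = 1.21e-18), which was rank 60 from the highest of the 18847 changes. In ATG7/SQSTM1 KO it was lower than in ATG7 KO, with a log2 change of -2.53 (SE 0.059, edgeR adjusted p = 8.50e-18), rank 99 from the lowest. It was still higher in ATG7/SQSTM1 KO than in control, with a log2 change of 0.44 (SE 0.069, edgeR adjusted p = 3.38e-05), or 1.36-fold. The values rest on 450 to 538 counts per ATG7/SQSTM1 KO library, 2672 to 2766 per ATG7 KO library and 290 to 426 per control library. A processed pseudogene on the opposite strand, AL645608.3, shares 36 exonic bases with ISG15, and it had at most 6 counts in any library. In bulk RNA a larger number of cells that express a gene and more of its RNA per cell cannot be told apart.

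The enzymes that load ISG15 rose by less. UBA7, the E1 (ENSG00000182179, chromosome 3, 49805207 to 49813946, minus strand), had 10.6, 9.13 and 10.7 CPM in ATG7/SQSTM1 KO cells, 23.1, 19.4 and 21.3 CPM in ATG7 KO cells and 8.97, 9.51 and 8.45 CPM in control cells. ATG7 KO lay apart from both other groups, which overlapped each other. The log2 change was 1.24 in ATG7 KO against control (SE 0.084, edgeR adjusted p = 4.31e-11), while ATG7/SQSTM1 KO against ATG7 KO gave -1.06 (SE 0.083, edgeR adjusted p = 3.68e-10). Between ATG7/SQSTM1 KO and control the difference was 0.18 with a 95% interval from -0.0016 to 0.36 (edgeR adjusted p = 0.113). Without ATG7/SQSTM1 KO replicate 2, the lowest library of its group, it was 0.25 and passed the threshold (edgeR adjusted p = 0.0438). UBE2L6, the E2 (ENSG00000156587, chromosome 11, 57551656 to 57568284, minus strand), had 35.2, 33.5 and 36.5 CPM in ATG7/SQSTM1 KO cells, 94.0, 90.2 and 86.8 CPM in ATG7 KO cells and 32.1, 33.1 and 33.6 CPM in control cells. Here too ATG7 KO lay apart, and the lowest ATG7/SQSTM1 KO library fell just below the highest control library. Its log2 change was 1.46 in ATG7 KO against control (SE 0.043, edgeR adjusted p = 4.30e-17), -1.36 in ATG7/SQSTM1 KO against ATG7 KO (SE 0.043, edgeR adjusted p = 1.32e-16) and 0.092 for ATG7/SQSTM1 KO over control (95% interval -0.0022 to 0.19, edgeR adjusted p = 0.119).

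The neighbouring ligase genes on chromosome 4 differed in size of change. HERC5 (ENSG00000138646, 88457117 to 88506163, plus strand) had 31.6, 29.6 and 30.4 CPM in ATG7/SQSTM1 KO cells, 43.8, 40.8 and 45.8 CPM in ATG7 KO cells and 30.5, 29.6 and 28.4 CPM in control cells. It was the member with the smallest change, 0.56 on the log2 scale in ATG7 KO against control (SE 0.05, edgeR adjusted p = 3.37e-09), while ATG7/SQSTM1 KO against ATG7 KO gave -0.51 (SE 0.049, edgeR adjusted p = 1.15e-08). HERC6 (ENSG00000138642, 88378739 to 88443111, plus strand), which ends 14005 bases before HERC5 begins, had 9.88, 11.4 and 10.5 CPM in ATG7/SQSTM1 KO cells, 37.8, 41.9 and 41.3 CPM in ATG7 KO cells and 10.6, 10.3 and 11.5 CPM in control cells. For both genes ATG7 KO lay apart from the other groups, which overlapped each other. The log2 change of HERC6 was 1.90 in ATG7 KO against control (SE 0.069, edgeR adjusted p = 1.14e-15), while ATG7/SQSTM1 KO against ATG7 KO gave -1.93 (SE 0.069, edgeR adjusted p = 1.01e-15). Between ATG7/SQSTM1 KO and control, HERC5 differed by 0.051 (95% interval -0.054 to 0.16, edgeR adjusted p = 0.469) and HERC6 by -0.027 (95% interval -0.18 to 0.13, edgeR adjusted p = 0.817). The sign of the HERC6 difference changed when 1 library was left out (0.021 without ATG7/SQSTM1 KO replicate 1 and 0.020 without control replicate 3).

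The unequal changes shifted the balance between these neighbours. The ratio of HERC6 to HERC5 CPM was 0.313, 0.385 and 0.346 in ATG7/SQSTM1 KO cells, 0.863, 1.03 and 0.902 in ATG7 KO cells, and 0.346, 0.348 and 0.404 in control cells. The ATG7 KO ratios lay above all others, and those of ATG7/SQSTM1 KO and control overlapped. Exact two-sided permutation tests gave p = 0.1 for each comparison with ATG7 KO, the smallest that 3 libraries against 3 allow, and an exact p = 0.4 for ATG7/SQSTM1 KO against control. The genes on either side of the pair had other values: PPM1K, a mitochondrial phosphatase, fell by 0.27 on the log2 scale in ATG7 KO against control (edgeR adjusted p = 0.0115), and PYURF differed by 0.17 with an SE of 0.30 (edgeR adjusted p = 0.668).

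The deconjugating protease followed the same order of groups. USP18 (ENSG00000184979, chromosome 22, 18149899 to 18177397, plus strand) had 11.5, 9.61 and 11.3 CPM in ATG7/SQSTM1 KO cells, 24.8, 22.3 and 24.1 CPM in ATG7 KO cells and 11.1, 10.3 and 9.83 CPM in control cells. ATG7 KO lay apart and the other groups overlapped. The log2 change was 1.19 in ATG7 KO against control (SE 0.079, edgeR adjusted p = 3.10e-11), -1.13 in ATG7/SQSTM1 KO against ATG7 KO (SE 0.079, edgeR adjusted p = 5.53e-11) and 0.060 for ATG7/SQSTM1 KO over control (95% interval -0.11 to 0.23, edgeR adjusted p = 0.616). USP18 has a near-identical copy, USP41, with which reads may be shared, so its level is uncertain to that extent. USP41 stood at 0.0583 to 0.789 CPM in ATG7/SQSTM1 KO, 0.989 to 2.08 CPM in ATG7 KO and 0.336 to 0.999 CPM in control. With the counts of both summed, the log2 change in ATG7 KO against control was 1.19. The ratio of ISG15 to USP18 CPM was 1.36, 1.61 and 1.39 in ATG7/SQSTM1 KO cells, 3.67, 4.10 and 3.66 in ATG7 KO cells, and 1.17, 0.973 and 1.16 in control cells. The 3 groups did not overlap in this ratio (exact two-sided permutation p = 0.1 for each comparison, the smallest this design allows).

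**Figure D2:**
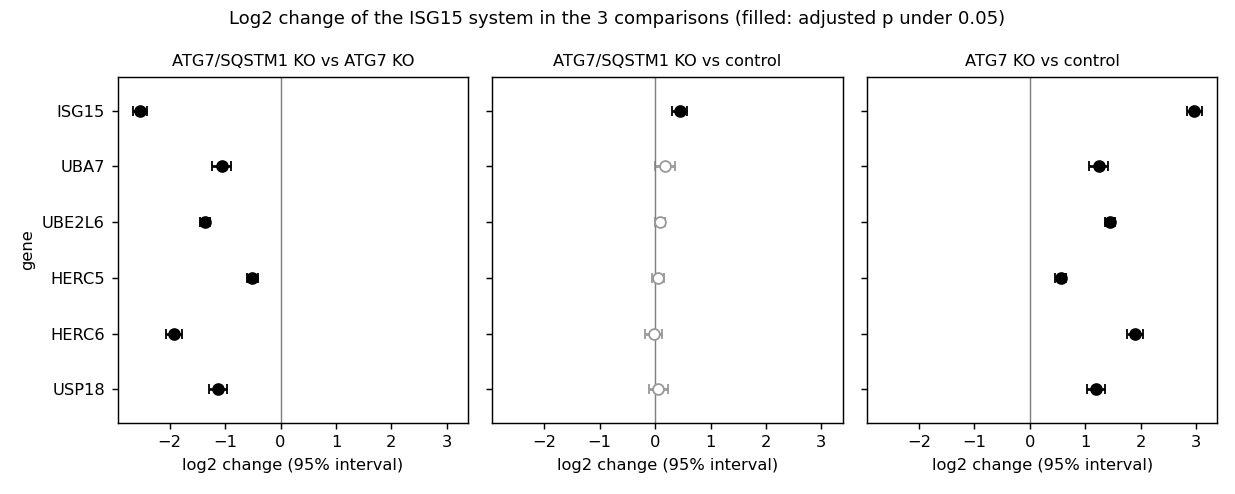
Log2 change (horizontal axis) of each gene in the 3 comparisons, with 95% intervals from the edgeR fit, where filled points have an adjusted p under 0.05 and open points do not. The order of size runs from ISG15 (2.97) to HERC5 (0.56) in ATG7 KO against control, and the 5 open points of ATG7/SQSTM1 KO against control have intervals that include 0.

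Levels of different genes were compared as CPM per kilobase of annotated exon. The length covers every annotated exon of a gene, whether or not it is in the RNA made here, so the order of genes depends on it. In ATG7/SQSTM1 KO, ISG15 (16.6 ± 0.14 CPM per kilobase, SD, n = 3) and UBE2L6 (16.0 ± 0.69) led and overlapped, followed by HERC5 (6.41 ± 0.21), USP18 (5.08 ± 0.50), UBA7 (2.24 ± 0.20) and HERC6 (1.83 ± 0.13). In ATG7 KO the order was ISG15 (95.9 ± 1.9 CPM per kilobase, SD, n = 3), UBE2L6 (41.1 ± 1.6), USP18 (11.2 ± 0.62), HERC5 (9.12 ± 0.52), HERC6 (6.96 ± 0.38) and UBA7 (4.68 ± 0.41), and no neighbours in it overlapped. In control UBE2L6 led (15.0 ± 0.34 CPM per kilobase, SD, n = 3), above ISG15 (12.2 ± 1.6), HERC5 (6.19 ± 0.22), USP18 (4.88 ± 0.30), UBA7 (1.98 ± 0.12) and HERC6 (1.86 ± 0.11), of which UBA7 and HERC6 overlapped. The modifier was thus below its E2 in every control library and above it in every ATG7 KO library. USP18 lay above HERC5 in ATG7 KO and below it in both other groups. HERC6 and UBA7 likewise stood in a different order in ATG7 KO than in ATG7/SQSTM1 KO.

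**Figure D3:**
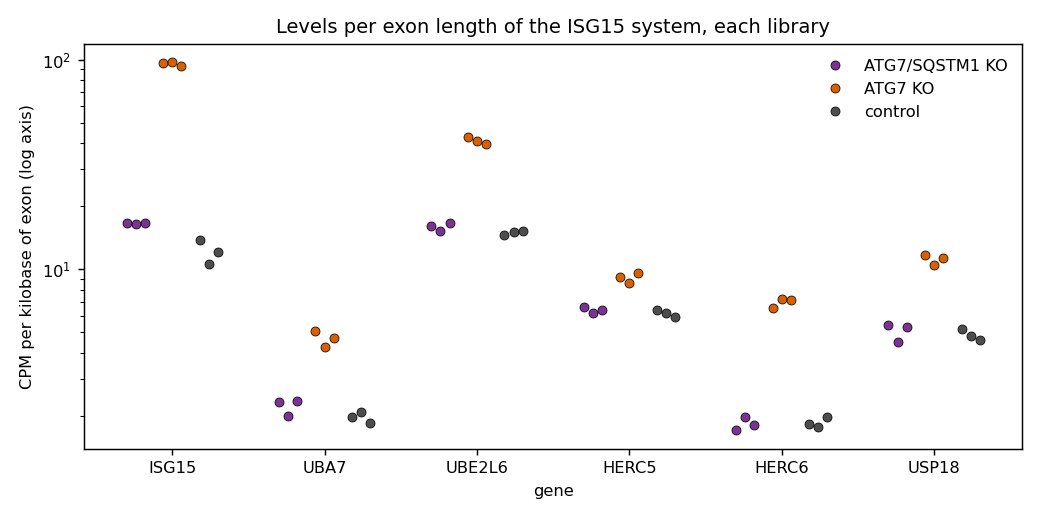
CPM per kilobase of exon (log axis) for each gene, with 1 point per library of ATG7/SQSTM1 KO, ATG7 KO and control cells. ISG15 libraries of ATG7 KO lie between 93.8 and 97.1, above every other point, and the HERC6 libraries of ATG7 KO lie above UBA7, whereas those of ATG7/SQSTM1 KO lie below it.

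Genes that do the same jobs for other ubiquitin-like proteins were read beside the system, from lists written out from textbook knowledge. In ATG7 KO against control, 28.4% of all tested genes were called higher and 28.3% lower. Of 10 other modifiers, 5 were higher in that comparison and 1 lower (5 and 2 on library totals alone). Their median log2 change was 0.059, against 1.35 for the ISG15 system and -0.017 for all tested genes. SUMO2 rose by 0.29 and URM1 by 0.30, whereas UBD, which encodes the interferon-inducible modifier FAT10, was lower. UBD had 2.27, 2.30 and 2.74 CPM in ATG7/SQSTM1 KO cells, 5.56, 6.14 and 6.25 CPM in ATG7 KO cells and 12.5, 12.4 and 13.4 CPM in control cells. The 3 groups did not overlap, and the log2 change against control was -2.39 for ATG7/SQSTM1 KO (edgeR adjusted p = 3.91e-13) and -1.10 for ATG7 KO (edgeR adjusted p = 6.98e-09). Of 9 other E1 subunits 5 were higher in ATG7 KO and 1 lower, the lower one being the targeted ATG7 (5 and 2 on library totals alone). SAE1, a subunit of the SUMO E1, rose most among them, by 0.54. Of 7 other E2 enzymes 4 were higher and 1 lower (3 and 1 on library totals alone). They were led by UBE2Z (0.42), the E2 that loads FAT10, and ATG3 (0.42), the E2 of the LC3 family. Of 12 deconjugating proteases 3 were higher and 3 lower (2 and 5 on library totals alone). UBE2L3, the closest relative of UBE2L6, had 105, 108 and 107 CPM in ATG7/SQSTM1 KO cells, 134, 136 and 135 CPM in ATG7 KO cells and 114, 112 and 112 CPM in control cells. Its log2 change in ATG7 KO against control was 0.26 (edgeR adjusted p = 1.82e-07), beside 1.46 for UBE2L6. Of the other HERC genes, the large ligases HERC1 and HERC2 and the smaller HERC3 and HERC4, HERC4 passed the threshold, by 0.16 (edgeR adjusted p = 0.00850), and the 4 changes ran from 0.089 to 0.16. With relative log expression size factors 2 of these 4 passed.

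In ATG7/SQSTM1 KO against ATG7 KO, 29.9% of all tested genes were called lower and 30.5% higher. Of the 10 other modifiers, 4 were lower in that comparison and 2 higher, with a median log2 change of -0.053. That stands beside -1.25 for the ISG15 system and 0.019 for all tested genes. The lowest of the 10 changes was that of UBD, -1.29. With relative log expression size factors 5 other modifiers were lower and 2 higher, and on library totals alone 4 and 3. Of 9 other E1 subunits 4 were lower and 2 higher (4 and 3 on library totals alone). Of 7 other E2 enzymes 5 were lower, of 12 proteases 3 were lower and 4 higher, and of 4 other HERC genes HERC2 was lower. In ATG7/SQSTM1 KO against control, 19% of all tested genes were called higher and 19.6% lower. Of the 10 other modifiers, 4 were higher there and 2 lower. In the same comparison 5 other E1 subunits were higher and 3 lower, ATG7 among the lower, 3 other E2 enzymes were lower, and 3 proteases were higher and 1 lower. The median log2 changes of these 4 lists lay between -0.040 and 0.13, beside 0.076 for the ISG15 system and -0.0080 for all tested genes. Of the 4 other HERC genes 1 was higher and 1 lower (0 and 1 on library totals alone).

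**Figure D4:**
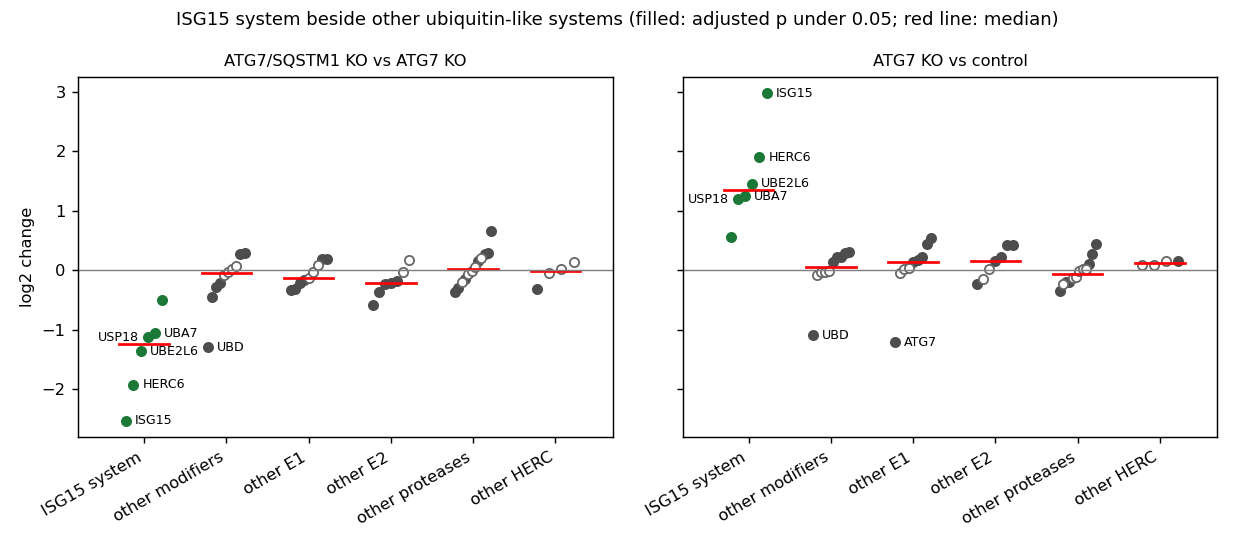
Log2 change (vertical axis) of the ISG15 system (green) and of genes with matching roles in other ubiquitin-like systems (grey), for ATG7/SQSTM1 KO against ATG7 KO and ATG7 KO against control, with a red line at each list's median and filled points for an adjusted p under 0.05. In ATG7 KO against control the ISG15 system has a median of 1.35 and the other lists lie near 0, with UBD (-1.10) and the targeted ATG7 (-1.22) as the points below -1.

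Factors that drive or bind the system were read from another list, of which IRF9, STAT2, IRF1 and IRF7 are given here. IRF9, the DNA-binding part of ISGF3, rose against control by 0.31 in ATG7/SQSTM1 KO (edgeR adjusted p = 0.0174) and by 1.08 in ATG7 KO (edgeR adjusted p = 5.16e-09). STAT2, which also brings USP18 to the receptor, rose by 0.56 in ATG7 KO against control (edgeR adjusted p = 1.72e-08). IRF1 fell by 0.20 in ATG7/SQSTM1 KO against control (edgeR adjusted p = 0.00252) and rose by 1.06 in ATG7 KO against control (edgeR adjusted p = 2.17e-14). IRF7, an interferon-induced factor, had at most 6 counts in any library and was not tested.

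Of 13 further genes tied to ISG15, 12 were tested, and in ATG7 KO against control 6 were higher and 4 lower, with a median log2 change of 0.093. In that comparison 28.4% of all tested genes were called higher and 28.3% lower. TRIM25, an antiviral ubiquitin ligase that can also act as an ISG15 ligase, had 135, 132 and 128 CPM in ATG7/SQSTM1 KO cells, 191, 194 and 185 CPM in ATG7 KO cells and 129, 133 and 130.2 CPM in control cells. It was thus apart in ATG7 KO, by 0.54 on the log2 scale against control (edgeR adjusted p = 2.31e-12), a change near that of HERC5. IFNAR2, the receptor subunit to which USP18 binds, was lower than in control in both knockouts, with log2 changes of -0.28 for ATG7/SQSTM1 KO (edgeR adjusted p = 0.0193) and -0.49 for ATG7 KO (edgeR adjusted p = 3.00e-04). HDAC6, a deacetylase reported to bind ISG15, was lower in ATG7 KO than in control, with a log2 change of -0.33 (edgeR adjusted p = 6.26e-07), and its log2 change in ATG7/SQSTM1 KO against control was 0.052 (edgeR adjusted p = 0.354). In ATG7/SQSTM1 KO against control, 2 of the 12 were higher and 6 lower, the targeted SQSTM1 among the lower, where 19% of all tested genes were called higher and 19.6% lower. In ATG7/SQSTM1 KO against ATG7 KO, 5 were higher and 7 lower (4 and 7 with relative log expression size factors), where 30.5% of all tested genes were called higher and 29.9% lower.

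The genes beside ISG15 on chromosome 1 did not all share its order of groups. HES4, on the opposite strand, lies 965 bases below the GENCODE start of ISG15 and 13324 bases below the RefSeq start site of the promoter shown, and it encodes a HES-type repressor. It was lower in ATG7 KO than in control, with a log2 change of -0.58 (edgeR adjusted p = 6.47e-07). In ATG7/SQSTM1 KO against control HES4 was higher, by 0.33 (edgeR adjusted p = 7.05e-04), as ISG15 was. AGRN, the agrin gene 5582 bases above ISG15, shared the order of groups of ISG15. It was higher in ATG7 KO than in control by 0.68 (edgeR adjusted p = 1.43e-14). The log2 change of AGRN was -0.46 in ATG7/SQSTM1 KO against ATG7 KO (edgeR adjusted p = 6.56e-12). In ATG7/SQSTM1 KO against control it was 0.21 (edgeR adjusted p = 3.63e-06). Beside UBA7, the log2 change in ATG7 KO against control was 0.11 for TRAIP (edgeR adjusted p = 0.307) and -0.97 for INKA1 (edgeR adjusted p = 7.31e-04). Beside UBE2L6, SMTNL1, which ends 1381 bases below it, was a low gene with 4, 4 and 9 counts in ATG7/SQSTM1 KO cells, 12, 11 and 22 counts in ATG7 KO cells and 3, 6 and 4 counts in control cells. Its order of groups was that of UBE2L6, with log2 changes of -1.44 in ATG7/SQSTM1 KO against ATG7 KO (edgeR adjusted p = 0.0161), while ATG7 KO against control gave 1.79 (edgeR adjusted p = 0.00579). On the other side, 29102 bases above UBE2L6, SERPING1, the C1 inhibitor gene, differed by 0.28 in ATG7 KO against control (edgeR adjusted p = 0.153). Beside USP18, TUBA8, a tubulin gene 3344 bases below it, differed by -0.48 in ATG7 KO against control (edgeR adjusted p = 0.142), and GGTLC3, 338946 bases above it, had at most 1 count in any library and was not tested. The neighbours are the nearest protein-coding gene on each side, and those of the HERC pair are given above.

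The genes whose pair of log2 changes against control lay nearest to those of a member were found among 11604 protein-coding genes of at least 5 CPM in their highest group, by Euclidean distance over the 9 libraries' 2 contrasts. For ISG15 they were LGALS9 (distance 0.093), OAS1 (0.12) and BST2 (0.22). OAS1, which makes 2-5A after sensing double-stranded RNA, averaged 9.27 CPM in ATG7/SQSTM1 KO, 60.0 CPM in ATG7 KO and 7.35 CPM in control. For HERC6 they were TDO2 (0.10), GBP1 (0.15) and SOCS3 (0.15), the last of these an inhibitor of cytokine signalling. For UBA7 they were LSR (0.026), TBX2 (0.039) and PARP10 (0.052). For UBE2L6 they were FMN1 (0.015), ALX4 (0.044) and TNFRSF1B (0.085). For USP18 they were HLA-DPB1 (0.029), GPER1 (0.039) and TNS2 (0.064), and for HERC5 they were ENOX2 (0.0079), ATP6AP1 (0.0091) and JMJD4 (0.021). More genes lie close together near small changes, so a short distance for HERC5 means less than the same distance for ISG15.

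Markers of other cells moved between the same groups. The summed level of 5 fibroblast markers was 177 to 185 CPM in ATG7/SQSTM1 KO, 333 to 360.5 CPM in ATG7 KO and 103 to 115 CPM in control. In ATG7 KO 3 of the 5 were higher than in control, where 28.4% of all tested genes were called higher. LUM and COL1A1, which encode matrix proteins, make up most of the sum and were lower in ATG7/SQSTM1 KO than in ATG7 KO, as was PDGFRB. The other 2, DCN and the receptor gene PDGFRA, went the other way. DCN averaged 32.6 CPM in ATG7/SQSTM1 KO, 21.2 CPM in ATG7 KO and 7.50 CPM in control. PDGFRA averaged 5.00 CPM in ATG7/SQSTM1 KO, 2.23 CPM in ATG7 KO and 2.29 CPM in control. Of the 5, 4 were higher in ATG7/SQSTM1 KO than in control, where 19% of all tested genes were called higher. The summed level of 7 blood cell markers was 3.60 to 4.84 CPM in ATG7/SQSTM1 KO, 10.3 to 11.7 CPM in ATG7 KO and 5.98 to 6.86 CPM in control. Of these, 5 were tested, 3 were higher and 1 lower in ATG7 KO than in control, and CD3E had no count in any library. All 5 were lower in ATG7/SQSTM1 KO than in ATG7 KO (4 on library totals alone), where 29.9% of all tested genes were called lower. Between ATG7/SQSTM1 KO and control, 2 of the 5 were higher in ATG7/SQSTM1 KO and 3 lower, where 19% of all tested genes were called higher and 19.6% lower. All 6 neuroendocrine markers were lower in ATG7 KO than in control, where 28.3% of all tested genes were. The part of these differences in the values of the ISG15 system was not tested.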

How the data were processed

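Per the labels' protocols, rRNA-depleted total RNA was turned into directional libraries by the dUTP method, with 12 cycles of PCR. The submitters' processing notes name HISAT2 and hg38, with no version. How reads were assigned to genes, and with which annotation and strand option, is not given in the sources used here. Raw whole-number counts, a gene per row and a library per column, were deposited by the authors, and 362598 missing cells were read as 0.

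The test was edgeR 4.0.16 in R 4.3.3 (filterByExpr by group with a minimum count of 10, TMM, robust quasi-likelihood fit of group means over all 9 libraries, 6 residual degrees of freedom). The SE is the log2 change over the square root of F. Libraries of a group differed by more than sampling noise (chi-square per degree of freedom 4.47 to 7.03). Exon lengths and coordinates are from GENCODE release 29 (GRCh38), by gene ID. Symbols with further rows on alternate loci were read from the row with a GENCODE ID. Ratios were compared with exact permutation tests over libraries. The script was tested on simulated counts.

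The 6 genes and the lists were chosen with earlier results of these data known. Named genes are the 6 members, the targeted genes, the 3 nearest genes per member and list members past the threshold, at most 4 a list and comparison by smallest p, plus those a result turns on. The alternatives tried were RLE (relative log expression) factors, library totals alone, leaving out the filter, a filter at a mean of 1 CPM, DESeq2 1.42.0, fitting the 6 compared libraries alone, a replicate block, each library left out, and, added after seeing the data, USP18 summed with USP41. A list member and its list count are not reported here.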

Additional observations from a re-analysis of the deposited data

How the results depend on the processing

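All 6 genes kept their direction and stayed past the threshold in both comparisons that involve ATG7 KO, under every alternative run and with each library left out. ISG15 did so in ATG7/SQSTM1 KO against control too, with log2 changes from 0.35 to 0.55 when a library was left out and from 0.44 to 0.45 otherwise. With a library left out, the number of the 6 genes changed in ATG7/SQSTM1 KO against control ran from 1 to 2. The second gene was UBA7, whose log2 change ran from 0.14 to 0.25 (edgeR adjusted p 0.0438 to 0.314), and it passed without ATG7/SQSTM1 KO replicate 2. HERC6 in the same comparison ran from -0.0823 to 0.0206 and changed sign without ATG7/SQSTM1 KO replicate 1 or control replicate 3, and its adjusted p stayed between 0.473 and 0.885. The cause was not tested. The numbers of all genes changed stayed within 1.5 times under every alternative run. The replicate numbers did not pair the libraries: deviations of same-numbered libraries correlated between -0.061 and 0.023, and a library correlated best with its own number in 2 of 18 cases. The replicate block gave 11262 genes in ATG7/SQSTM1 KO against ATG7 KO, 7137 in ATG7/SQSTM1 KO against control and 10564 in ATG7 KO against control, and moved no call of the 6 genes. In that fit the log2 change of ISG15 was 2.98 in ATG7 KO against control. At 264 to 426 counts per control library, ISG15, UBA7, HERC6 and USP18 are the members with the widest intervals.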
